A study of Homo sapiens with 10 samples.

Results

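IL13RA2 and 6 related cytokine receptors, IL13RA1, IL4R, IL6ST, IL6R, OSMR and LIFR, were followed on 10 Affymetrix HG-U133 Plus 2.0 arrays. Their members were all probe sets that the platform annotation assigns to exactly 1 gene, that gene being one of these 7, which gave 24 of the 41091 probe sets naming 1 gene and 7 of 19775 genes. IL13RA2 was chosen with its rise in cells carrying ETV1 already known. The members were thus selected on the ETV1 and control intensities of IL13RA2, and its rise is described here without a test, while the other 6 receptors were added as its relatives.

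The cells were RWPE-1, a human prostate epithelial line that is immortalised but forms no tumours, transduced with MSCV retroviral vectors, selected as stable clones and kept under normal growth conditions. Every group carried the biotin ligase BirA. The 3 control arrays came from cells with BirA alone, 4 arrays from cells with BirA and ETV1, and 3 arrays from cells with BirA and ERG. ETV1 and ERG are transcription factors of the ETS family whose genes are often joined to an androgen-driven promoter in prostate tumours. The series design speaks of 3 biological replicates, although 4 ETV1 arrays are labelled. Nothing in the labels says that replicates came from separately derived clones, so p-values may measure only the spread between these arrays, which may be technical.

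IL-13 binds IL13RA1, which pairs with IL4R into a receptor that signals through JAK kinases and STAT6. IL-4 uses the same pair or IL4R with the common gamma chain. IL13RA2 binds IL-13 with high affinity but has a short cytoplasmic tail without the JAK-binding motifs, and is known as a decoy receptor. IL6ST, or gp130, is the signal-transducing chain shared by the IL-6 family: IL-6 reaches it through IL6R, leukaemia inhibitory factor through LIFR, and oncostatin M through OSMR or LIFR. These receptors activate STAT3, whose target SOCS3 binds gp130 and dampens it. The comparisons address how these receptors differ when an ETS factor is overexpressed in prostate epithelial cells.

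Values are the deposited intensities on a linear scale, with a floor of 1. Tests ran on log2(intensity + 16) in limma, over all 25969 single-gene probe sets above their array's median on at least 3 arrays, with a Benjamini-Hochberg adjusted p of 0.05 as the threshold. A log2 difference on this scale understates the change of dim probe sets. Of the 24 receptor probe sets 18 passed this filter. The other 6, from IL6ST, IL6R and LIFR, were dim.

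Arrays labelled ERG were unlike the remaining 7. Spearman correlations over all probe sets were 0.766 to 0.811 between ERG-labelled and control arrays, against 0.956 to 0.969 between ETV1 and control arrays. Of 4989 genes with at least 2 passing probe sets, 50.3% had probe sets passing in opposite directions between ERG-labelled and control arrays, against 4.01% of 1147 genes between ETV1 and control arrays. For ACTB, the 3' probe set over the 5' probe set gave 2.75 to 3.07 on the ERG-labelled arrays, 1.35 to 1.40 on control arrays and 1.24 to 1.30 on ETV1 arrays. The same ratio for GAPDH did not set them apart, at 0.946 to 1.04, against 0.893 to 0.931 on control and 0.994 to 1.05 on ETV1 arrays. Their median intensities were 48.5 to 52.5, against 70.9 to 75.5 on the other arrays, and 663 to 689 of their probe sets were at the floor, against 1426 to 1604. ERG itself did not settle the label, since its brightest probe set fell from 186 ± 4.61 (SD, n = 3) to 9.43 ± 1.57 (n = 3), while its dimmest read 9.04 ± 3.23 and 36.5 ± 12.3. Whether these arrays were processed like the others is not stated, and every direction on them carries that limit. The 12 measured prostate epithelial markers summed to 37577 to 44551 on control arrays, 41279 to 46821 on ETV1 arrays and 59788 to 60367 on the ERG-labelled arrays. These sums hide opposite directions, since 5 of the 12 rose and 2 fell in ETV1 cells. Those that fell were EPCAM (-0.89, limma adjusted p = 0.00035) and KRT18 (-0.57, limma adjusted p = 0.016). The summed level of 8 leukocyte markers was 768 to 872 on control, 742 to 828 on ETV1 and 237 to 290 on ERG-labelled arrays. That of 7 endothelial markers was 1529 to 1724, 1441 to 1605 and 236 to 276 in the same order. The luminal and fibroblast sums were also lower on every ERG-labelled array than on any other array. The lower level there was thus not particular to leukocyte markers. None of the tested luminal, fibroblast, endothelial or leukocyte markers rose in ETV1 cells. Most fibroblast and endothelial markers were too dim to test, among them CLDN5, at 20.3 ± 9.13 on control and 58.2 ± 12.6 on ETV1 arrays.

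IL13RA2 was far higher on ETV1 arrays than on all others. Its single probe set, 206172_at, read 148, 120 and 157 on control arrays A, B and C. On ETV1 arrays A, B, C and D it read 2158, 2602, 2426 and 1046, and on the ERG-labelled arrays A, B and C it read 132, 228 and 103. The lowest ETV1 array lay above every other array, while the control and ERG-labelled arrays overlapped. The ratio of the ETV1 to the control mean was 14.5, and the log2 difference was 3.65. Without ETV1 replicate D, the lowest of its group, the difference was 3.94. In RNA from whole cultures, fewer cells with a transcript and less of it per cell cannot be told apart.

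IL13RA2 read 154 ± 65.3 (SD, n = 3) on ERG-labelled and 141 ± 19.7 (n = 3) on control arrays, a log2 difference of 0.05. Since the control values took part in its choice, this is a description too. ERG-labelled arrays lay below ETV1 arrays by 3.59 on the log2 scale.

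Of the 5 ETV1 probe sets, the 3 that rose followed the same order over the ETV1 arrays as IL13RA2. The ETV1 probe set with the largest rise, 217053_x_at, read 1302, 1689, 1443 and 845 on ETV1 arrays A to D, so that replicate B was highest and replicate D lowest, as for IL13RA2. Its control arrays read 72.5, 70.3 and 122. The other ETV1 probe sets did not follow this order: 221910_at was highest on replicate D (108) and 221911_at lowest on replicate C (33.9). With 4 arrays this is a description of their values only.

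**Figure D1:**
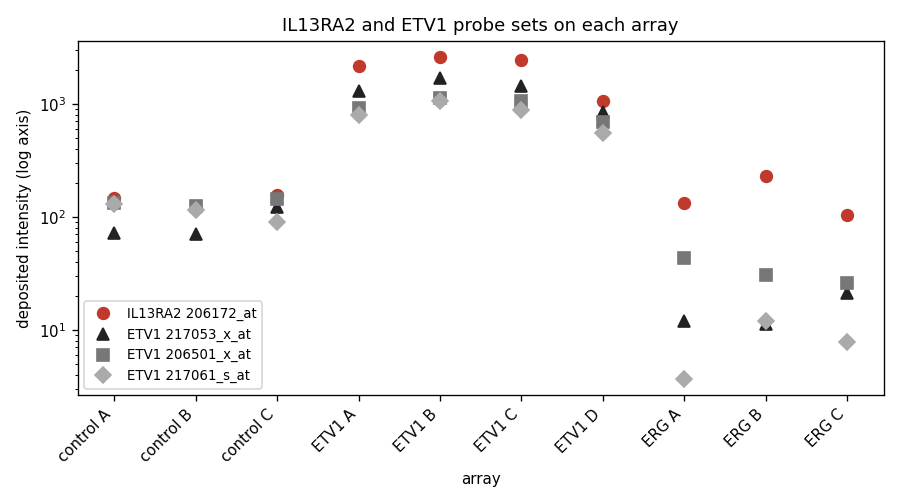
Deposited intensity (log axis) of the IL13RA2 probe set and of 3 ETV1 probe sets on each of the 10 arrays, each point 1 array. IL13RA2 lies between 1046 and 2602 on the 4 ETV1 arrays, with replicate D lowest, and between 103 and 228 on the other 6; levels of different probe sets are not comparable with each other.

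The 6 genes most like IL13RA2, by Pearson correlation over the 10 arrays among 14062 other tested genes, were FYN (r = 0.992), PRSS3 (0.987), LINC02910 (0.986), OSBP2 (0.986), PDE2A (0.986) and ANO1 (0.983). FYN, a SRC-family kinase, went from 310 ± 26.7 (SD, n = 3) on control arrays to 1120 ± 227 (n = 4) on ETV1 arrays, and read 326 ± 30.3 (n = 3) on the ERG-labelled arrays. PDE2A, a cyclic nucleotide phosphodiesterase, read 116 ± 6.98, 1004 ± 396 and 93.8 ± 17.9 in the same order. On replicate D the chloride channel ANO1 read 139, against 270 to 345 on the other ETV1 arrays. It read 10.7 ± 5.16 on control and 6.63 ± 1.89 on ERG-labelled arrays, and LINC02910 read 15.7 ± 5.81 and 6.01 ± 2.91. Both passed the filter only through the ETV1 arrays, where they are high. Each of the 6 was lower on replicate D than on the other ETV1 arrays, as IL13RA2 was. Replicate D took part in choosing them, so this is no separate observation. After quantile normalization 3 of these 6 were still among the 6 most like it. The groups themselves give most of such a correlation, and the PRSS3 probe set is of a type that can match several transcripts.

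Among the other receptors, IL13RA1, OSMR and a LIFR probe set were higher in ETV1 cells, IL4R and IL6ST did not pass, and an IL6R probe set was lower. Of the 17 tested probe sets other than that of IL13RA2, 7 rose, 1 fell and 9 did not pass. In this comparison 23.5% of all tested probe sets passed, 10.4% upward and 13.1% downward. ETV1 and control arrays did not overlap, with ETV1 higher, on those 7 and on 15.3% of all tested probe sets. The 17 share 6 genes and are not independent of each other. With only control and ETV1 arrays in the fit, 9 passed.

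IL13RA1, the signalling IL-13 receptor chain, rose on 3 of its 4 probe sets. Probe set 211612_s_at read 116, 119 and 132.8 on control arrays and 253, 254, 254 and 261 on ETV1 arrays. The groups did not overlap, with a log2 difference of 0.97 (SE 0.12, limma adjusted p = 2.5e-05). Probe set 210904_s_at read 83.1 to 106 on control and 174 to 228 on ETV1 arrays, a rise of 1.001 (SE 0.14, limma adjusted p = 7.5e-05).

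Probe set 201888_s_at rose most, by 1.40 (SE 0.15), from 66.9 to 113 on control arrays to 229 to 243 on ETV1 arrays. It lay above the array median on 1 of 3 control arrays, and on all ETV1 and ERG-labelled arrays. The brightest IL13RA1 probe set, 201887_at, behaved otherwise. It read 332, 404 and 511 on control arrays and 494, 504, 431 and 602 on ETV1 arrays, which overlapped, and differed by 0.29 (SE 0.16, limma adjusted p = 0.22).

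IL4R, the chain that IL13RA1 pairs with, has 1 probe set, 203233_at. It read 842, 647 and 552 on control arrays and 717, 802, 755 and 738 on ETV1 arrays. All ETV1 arrays lay within the control range, and the log2 difference of 0.16 (SE 0.16) did not pass (limma adjusted p = 0.51, 95% interval -0.17 to 0.50).

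OSMR, the specific chain of the oncostatin M receptor, rose on all 3 of its probe sets. The brightest, 226621_at, read 559, 516 and 439 on control arrays and 1031, 1078, 990 and 844 on ETV1 arrays. These groups did not overlap, and the log2 difference was 0.95 (SE 0.17, limma adjusted p = 0.00076). Probe set 1554008_at rose by 0.92 (SE 0.14), from 114 to 145 on control arrays to 215 to 297 on ETV1 arrays. Probe set 205729_at rose by 0.92 (SE 0.15), from 75.3 to 91.6 to 154 to 196. The 3 probe sets thus moved alike on ETV1 arrays.

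LIFR, the receptor chain for leukaemia inhibitory factor, gave a divided picture. Probe set 225575_at read 77.8, 65.7 and 50.5 on control arrays and 180, 141, 149 and 118 on ETV1 arrays, without overlap. It rose by 1.02 (SE 0.19, limma adjusted p = 0.0011), and lay above the array median on 1 of 3 control arrays. Probe set 227771_at read 162 to 226 on control and 177 to 234 on ETV1 arrays, which overlapped, and differed by 0.09 (SE 0.15, limma adjusted p = 0.72). The dim probe set 225571_at, left out by the filter, read 14.6 to 19.2 on control and 34.6 to 62.7 on ETV1 arrays. With no filter it differed by 0.98 (SE 0.20, limma adjusted p = 0.0066). The remaining LIFR probe sets, 205876_at and 229185_at, were at most 37.5 and 22.4 on any array.

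IL6ST, the shared signalling chain, did not pass on any of its 5 tested probe sets. The brightest, 212195_at, read 2060, 1814 and 1340 on control arrays and 2070, 2167, 2023 and 1766 on ETV1 arrays. The 5 log2 differences ran from 0.09 to 0.46, all upward, with limma adjusted p from 0.15 to 0.74, and groups overlapped on every probe set. Probe set 204863_s_at, with the largest difference, read 581, 644 and 353 on control arrays and 761, 744, 765 and 568 on ETV1 arrays. After quantile normalization 212195_at, 204863_s_at and 211000_s_at passed, with differences of 0.40, 0.59 and 0.50. Probe set 211000_s_at, at 0.42 as deposited, also passed with only control and ETV1 arrays in the fit (limma adjusted p = 0.043) and without ERG-labelled replicate B (0.047). The dim probe sets 234967_at and 234474_x_at were at most 41.4 and 16.5 on any array.

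IL6R, the ligand-binding chain for IL-6, was the receptor gene with a lower probe set. Probe set 226333_at read 432, 329 and 268 on control arrays and 156, 157, 180 and 291 on ETV1 arrays, so that replicate D overlapped the control range. The log2 difference was -0.78 (SE 0.22, limma adjusted p = 0.017). Leaving out control replicate A (-0.61) or ETV1 replicate A (-0.69) ended this call. Probe set 205945_at read 257, 273 and 201 on control arrays and 206, 179, 205 and 346 on ETV1 arrays. Replicate D was here the highest of all 10 arrays, and the difference was -0.09 (limma adjusted p = 0.80). The third probe set, 217489_s_at, was at most 32.7 on any array.

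**Figure D2:**
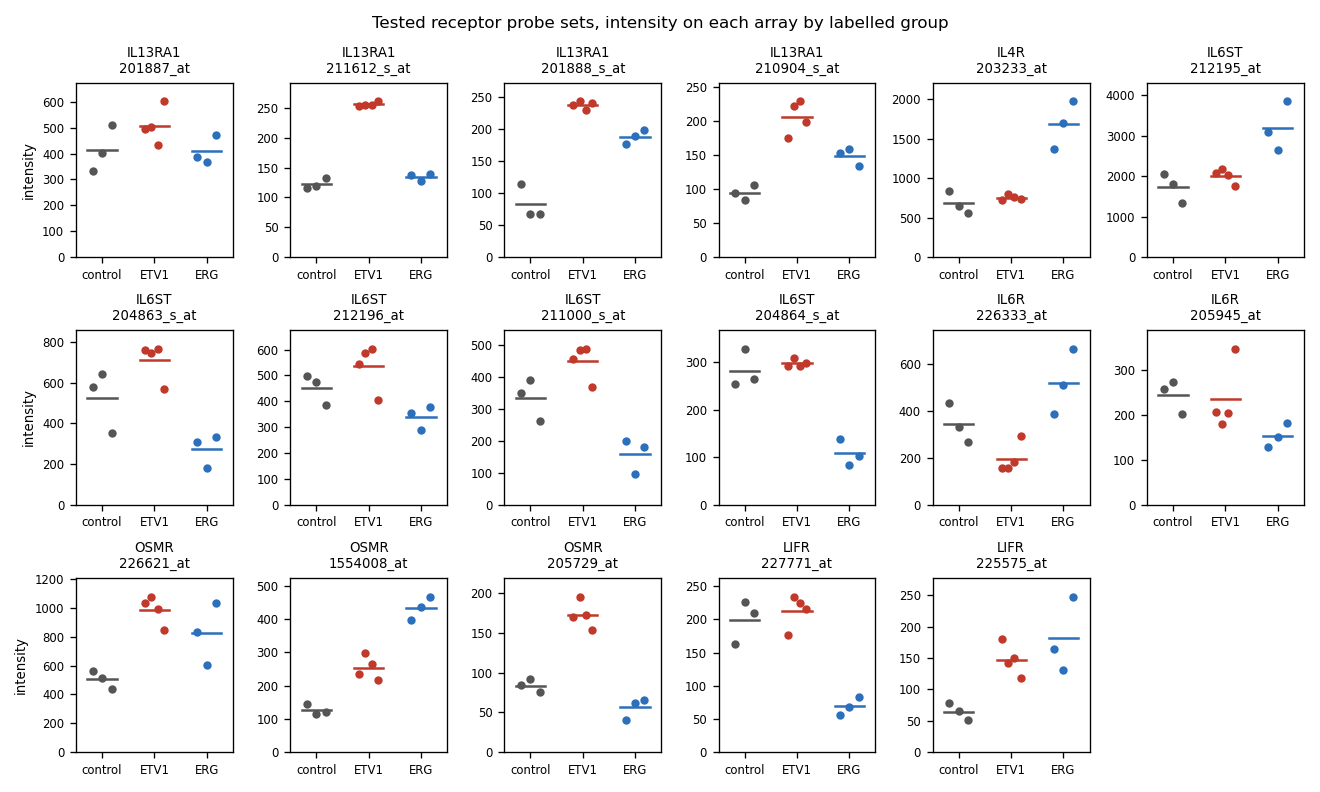
Deposited intensity (linear axis from 0) of the 17 tested probe sets other than that of IL13RA2, each point 1 array and each short line a group mean, for 3 control, 4 ETV1 and 3 ERG-labelled arrays. The ETV1 arrays lie above all control arrays on 3 IL13RA1 and 3 OSMR probe sets and on LIFR 225575_at, while IL4R overlaps.

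On the receptors, as over all tested probe sets, ETV1 replicate D was often the lowest or highest ETV1 array. It was the lowest ETV1 array on 9 of the 18 tested probe sets, including IL13RA2, all 3 of OSMR, 4 of IL6ST and LIFR 225575_at. It was the highest on 4, including both of IL6R. Over all tested probe sets, replicate D was lowest on 36.5% and highest on 28.8%. Replicate B was highest on 9 of the 18 and lowest on 1, against 36.5% and 15.2% over all tested probe sets.

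Start sites of the receptors are shown because IL13RA1 and OSMR rose together with an overexpressed ETS factor, a family that binds DNA around a GGAA core. RefSeq promoter windows of 300 bases on GRCh38.p14, from 250 bases before to 50 bases after the start, matched 6 of the 7 genes, and IL13RA2 was not among them. Capitals mark GGAA or its complement TTCC, searched on both strands. The windows of IL13RA1 (chrX:118727356-118727655, plus strand), OSMR (chr5:38845762-38846061, plus strand) and IL6ST (chr5:55994914-55995213, minus strand) read, from 5′ to 3′ on the gene's strand:
IL13RA1: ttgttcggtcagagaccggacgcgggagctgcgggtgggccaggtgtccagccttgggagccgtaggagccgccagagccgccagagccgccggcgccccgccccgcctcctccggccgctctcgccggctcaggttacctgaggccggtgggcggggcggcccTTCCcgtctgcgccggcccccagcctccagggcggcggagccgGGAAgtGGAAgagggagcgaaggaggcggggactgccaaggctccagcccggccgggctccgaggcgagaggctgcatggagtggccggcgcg
OSMR: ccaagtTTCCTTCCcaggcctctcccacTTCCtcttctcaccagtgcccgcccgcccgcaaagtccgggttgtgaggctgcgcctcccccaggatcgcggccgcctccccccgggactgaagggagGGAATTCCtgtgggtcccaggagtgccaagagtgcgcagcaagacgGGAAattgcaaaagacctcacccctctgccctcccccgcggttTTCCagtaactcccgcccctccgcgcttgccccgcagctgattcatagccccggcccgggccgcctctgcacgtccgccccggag
IL6ST: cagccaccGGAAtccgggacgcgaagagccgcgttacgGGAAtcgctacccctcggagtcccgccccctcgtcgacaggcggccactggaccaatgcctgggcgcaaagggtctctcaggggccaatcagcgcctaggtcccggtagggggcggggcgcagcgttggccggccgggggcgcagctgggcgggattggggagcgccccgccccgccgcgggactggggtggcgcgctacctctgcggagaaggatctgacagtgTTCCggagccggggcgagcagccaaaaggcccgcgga
The OSMR window held 7 matches, that of IL13RA1 3, that of IL6ST 3 and that of IL4R 4. Among all 35116 windows 95.5% held at least 1, with a mean of 3.51. The longer ETS motif CCGGAA, which contains GGAA, occurred 2 times in the IL6ST window and in none of the other member windows, against 17.2% of all windows with a match. The STAT motif TTCNNNGAA occurred in 2 of the 3 LIFR windows and in no other, against 7.66% of all windows. These are letter matches and say nothing of binding.

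Of the genes around these receptors, the suppressors of cytokine signalling SOCS3, SOCS1 and SOCS6 were higher in ETV1 cells, and the phosphatases PTPN1 and PTPN6, which dampen JAK-STAT signalling, were lower. Each gene was read here from its brightest probe set, and its other probe sets need not have passed with it. Of 96 tested genes on 7 lists covering ligands, partners, transducers, inhibitors and targets, 17 rose and 11 fell. That is 29.2%, where 25.3% of all 14069 tested genes passed, 9.32% upward and 15.9% downward. The median log2 difference of the 96 genes was 0.01, against -0.06 over all tested genes. Without control replicate B, 17 of the listed genes passed in place of 28. The background moved too: leaving out 1 array at a time, 4087 to 7155 of all probe sets passed, against 6102 with all arrays.

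Ligands of these receptors were mostly dim or did not pass. Of 10 listed IL-6 family ligands 7 were on the array, 3 were tested and 1 rose, where 9.32% of all tested genes rose. Their median was 0.21, against -0.06 over all genes. LIF, the ligand of LIFR, read 55.9, 63.0 and 40.8 on control arrays and 76.2, 86.6, 90.2 and 67.4 on ETV1 arrays, without overlap, a rise of 0.48 (SE 0.15, limma adjusted p = 0.027). Its call was lost on leaving out control replicate A (0.51) or C (0.34), or ETV1 replicate A (0.50), B (0.45) or C (0.43). It was also lost with no filter or a pseudocount of 64 (limma adjusted p = 0.054 and 0.063). IL6 read 258 ± 24.0 (SD, n = 3) on control and 302 ± 38.4 (n = 4) on ETV1 arrays, a difference of 0.21 (limma adjusted p = 0.30). IL11 differed by -0.03. OSM was not tested and read 65.2 ± 8.44 and 63.5 ± 6.72.

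Of 13 genes around IL-4 and IL-13 signalling 10 were tested, 2 rose and none fell, with a median of 0.10. Among all tested genes 9.32% rose and 15.9% fell, with a median of -0.06. IL13 read 107 ± 13.1 on control and 104 ± 15.9 on ETV1 arrays (limma adjusted p = 0.85), and IL4 was dim, at most 16.3 on any of these arrays. IRS2, an adaptor that IL-4 receptors use, rose by 0.73 (SE 0.19), a call lost on leaving out control replicate C (0.57). Of the 2 tested IRS2 probe sets 1 passed. TSLP, an epithelial cytokine, rose by 0.46 (SE 0.15, limma adjusted p = 0.027). That call was lost on leaving out control replicate B (0.49) or C (0.37), or ETV1 replicate A (0.45), B (0.42) or C (0.44), and with no filter (limma adjusted p = 0.052).

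Of 28 other cytokine receptors 24 were tested, 2 rose and 2 fell in ETV1 cells, with a median of -0.05. Among all tested genes 9.32% rose and 15.9% fell, with a median of -0.06. IL15RA, which presents IL-15, rose by 0.49, or 0.47 and not passing if control replicate B is left out. IL27RA, which signals through gp130 for IL-27, rose by 0.47, a call lost on leaving out control replicate C (0.36) or ETV1 replicate A (0.45) or C (0.47). IL20RB, a chain of the IL-20 family receptors, fell by 0.52, a call lost on leaving out control replicate A (-0.42) or B (-0.48). IL12RB2, the IL-12 receptor chain, fell by 0.48, a call lost on leaving out control replicate B (-0.44) and with a pseudocount of 64 (-0.25). It lay below the array median on all control and ETV1 arrays. IL11RA, the IL-11 receptor, differed by -0.42 (limma adjusted p = 0.13), and passed without ETV1 replicate D (-0.54).

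The transducers were largely level. Of 15 tested none rose and 2 fell, where 9.32% of all tested genes rose and 15.9% fell. Their median was -0.02, against -0.06 over all genes. STAT3, the main transcription factor of gp130 receptors, read 1198 ± 97.5 on control and 1198 ± 179 on ETV1 arrays, and STAT6, that of IL-4 and IL-13, read 1023 ± 96.5 and 905 ± 14.9 (limma adjusted p = 0.98 and 0.35). The kinases JAK1, JAK2 and TYK2 differed by 0.07, 0.13 and -0.31 (limma adjusted p = 0.82, 0.68 and 0.095). TYK2 passed after quantile normalization (-0.29) and without control replicate C (-0.42). PTPN11, a phosphatase that links these receptors to the RAS pathway, fell by 0.55 and the adaptor GRB2 fell by 0.54. Leaving out control replicate A ended both calls (-0.45 and -0.39), and leaving out control replicate B that of PTPN11 (-0.55). Of all tested probe sets, 1 of 6 for PTPN11 and 1 of 3 for GRB2 passed.

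Of 15 tested inhibitors of JAK-STAT signalling 4 rose and 5 fell, where 9.32% of all tested genes rose and 15.9% fell. Their median was -0.03, against -0.06 over all genes. SOCS3, which binds gp130 and blocks JAK activity, read 56.9, 30.7 and 42.5 on control arrays and 104, 173, 139 and 110 on ETV1 arrays, without overlap. It rose by 1.31 (SE 0.18, limma adjusted p = 4.8e-05), and lay below the array median on all control arrays. Of the 2 tested SOCS3 probe sets 1 passed. SOCS1, an inhibitor of the JAK kinases, rose by 0.97 (SE 0.24), from 5.28 to 42.5 on control arrays to 60.9 to 64.8 on ETV1 arrays. It lay below the array median on all of these arrays and entered the test through the ERG-labelled ones. SOCS6 rose by 0.84 (SE 0.15). Among those that fell, the phosphatase PTPN1 changed by -0.62 (SE 0.15) and PIAS4, a SUMO ligase that restrains STATs, by -0.56 (SE 0.12). Both passed on 1 of 2 tested probe sets. The phosphatase PTPN6 fell by 0.70 (SE 0.19), a call lost on leaving out control replicate A (-0.53) or B (-0.58). SOCS2 and CISH, classical targets of STAT5, differed by -0.03 and 0.24 (limma adjusted p = 0.90 and 0.32).

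**Figure D3:**
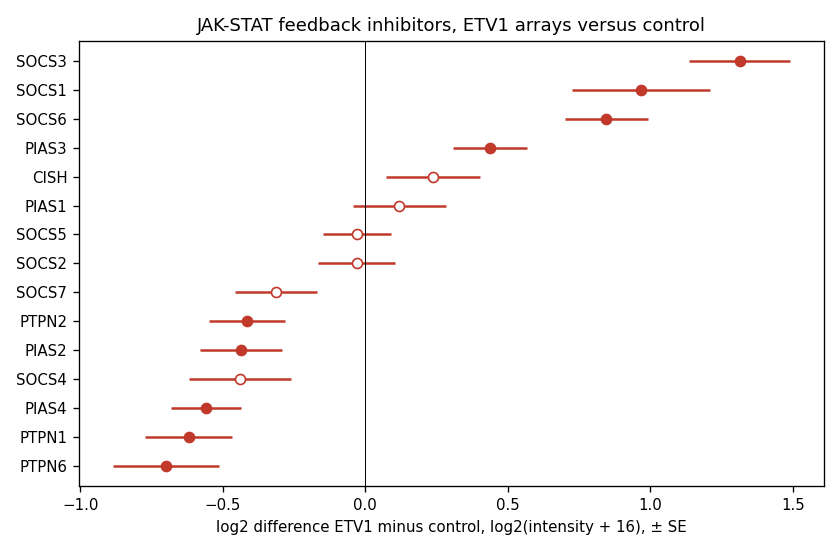
Log2 difference between ETV1 and control arrays, on log2(intensity + 16), of the 15 tested JAK-STAT feedback inhibitors, with standard errors from limma; filled points passed and open points did not. SOCS3 lies highest at 1.31 and PTPN6 lowest at -0.70.

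Of 26 tested STAT3 target genes 5 rose and 2 fell, with a median of 0.08, and after quantile normalization 11 passed. The share of all genes passing in that setting is not given here. Over the alternatives, which do not all test equally many probe sets, up to 8123 of them passed, against 6102 as deposited. The background thus moves too. SERPINA3, an acute-phase protease inhibitor, read 65.7 to 82.5 on control and 229 to 247 on ETV1 arrays, a rise of 1.49 (SE 0.13, limma adjusted p = 5.6e-07). CCND1, the G1 cyclin, rose by 0.99 (SE 0.15). LCN2, an iron-binding acute-phase protein, fell by 1.22 (SE 0.14), from 6105 ± 763 to 2604 ± 333, and the AP-1 subunit JUNB fell by 0.65 (SE 0.14). MCL1 and BCL2L1 did not pass by their brightest probe set. Of all their tested probe sets, 3 of 5 and 3 of 4 passed upward, and 0 downward. Of 15 tested epithelial targets of IL-4 and IL-13, 6 rose and none fell, with a median of 0.24. Beside both target lists, 9.32% of all tested genes rose and 15.9% fell, with a median of -0.06. The protease inhibitors SERPINB4 and SERPINB3 rose by 1.93 (SE 0.19) and 1.85 (SE 0.21), and their near-identical sequences may share probes. SERPINB4 lay below the array median on all control arrays and passed the filter only through the ETV1 arrays, where it is high. Of the 6, CCND1 and SOCS1 also stand on other lists, and SOCS1 lay below the array median on all control and ETV1 arrays. The eotaxin CCL26 and the matrix protein POSTN were not tested, at 15.5 ± 4.5 and 19.4 ± 12.1 on ETV1 arrays.

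On the ERG-labelled arrays, most receptor probe sets differed from control, as did most probe sets in all. Of the 17 tested other than IL13RA2, 15 passed, 8 upward and 7 downward, or 88.2%, where 78.4% of all tested probe sets passed, 43.3% upward and 35.1% downward. Of the 5 receptor genes with at least 2 passing probe sets, 4 had them in opposite directions, where the share over all genes was 50.3%. After quantile normalization 1 of 4 did (LIFR), and 2 of 4 after median centring or without control replicate B or ERG-labelled replicate A. The ACTB ratio and the correlations given above move with this group, and their part in these differences was not tested. Scaling each array to its median moved the median of all tested probe sets from 0.17 to 0.65, and the upward share of the passing probe sets from 55.2% to 69.6%.

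IL4R was higher on these arrays. Its probe set read 1363, 1704 and 1973, above all control arrays, a rise of 1.29 (SE 0.17, limma adjusted p = 3.6e-06). It was also 1.13 (SE 0.16) above ETV1 arrays. The gene has no other probe set to set beside it.

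IL13RA1 was higher on 2 of its 4 probe sets. Probe set 201888_s_at read 177, 189 and 198, a rise of 1.08 (SE 0.16), and 210904_s_at read 152, 158 and 133.2, a rise of 0.57 (SE 0.15). Probe set 211612_s_at read 137, 127 and 138 and differed by 0.12 (limma adjusted p = 0.41), though it passed after quantile normalization (0.41) and median centring (0.58). The brightest, 201887_at, differed by -0.01, and by 0.49 with a passing p after median centring.

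The IL-6 family receptors split by probe set. For IL6ST, 212195_at read 3099, 2651 and 3854 and rose by 0.88 (SE 0.18), though it did not pass after quantile normalization (0.27). The other 4 tested probe sets fell, 204864_s_at by 1.27 (SE 0.16) to 138, 84.2 and 102, and 212196_at by 0.39. The fall of 212196_at turned to 0.10 after median centring and did not pass in most other alternatives. OSMR 1554008_at read 398, 435 and 467 and rose by 1.66 (SE 0.15), and 226621_at rose by 0.67 (SE 0.18). OSMR 205729_at fell by 0.48 (SE 0.16) to 40.8, 62.4 and 66.1, and did not pass after quantile normalization (-0.078), after median centring (-0.063) or without control replicate B (-0.42) or ERG-labelled replicate A (-0.31). IL6ST 204863_s_at fell by 0.90 (SE 0.23) and did not pass after median centring (-0.41). LIFR 225575_at read 165, 131 and 248 and rose by 1.26 (SE 0.20), while 227771_at fell by 1.34 (SE 0.17) to 56.7, 67.8 and 83.1. IL6R 226333_at read 386, 510 and 663, overlapping the control range, and rose by 0.57 (SE 0.24). Its call was lost after quantile normalization (0.41) and on leaving out control replicate B (0.55) or C (0.41), or ERG-labelled replicate B (0.57) or C (0.38). It was also lost with no filter or a pseudocount of 1 (limma adjusted p = 0.063 and 0.064). IL6R 205945_at fell by 0.62 (SE 0.21), and did not pass after quantile normalization (-0.43), after median centring (-0.14) or without ERG-labelled replicate A (-0.51).

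**Figure D4:**
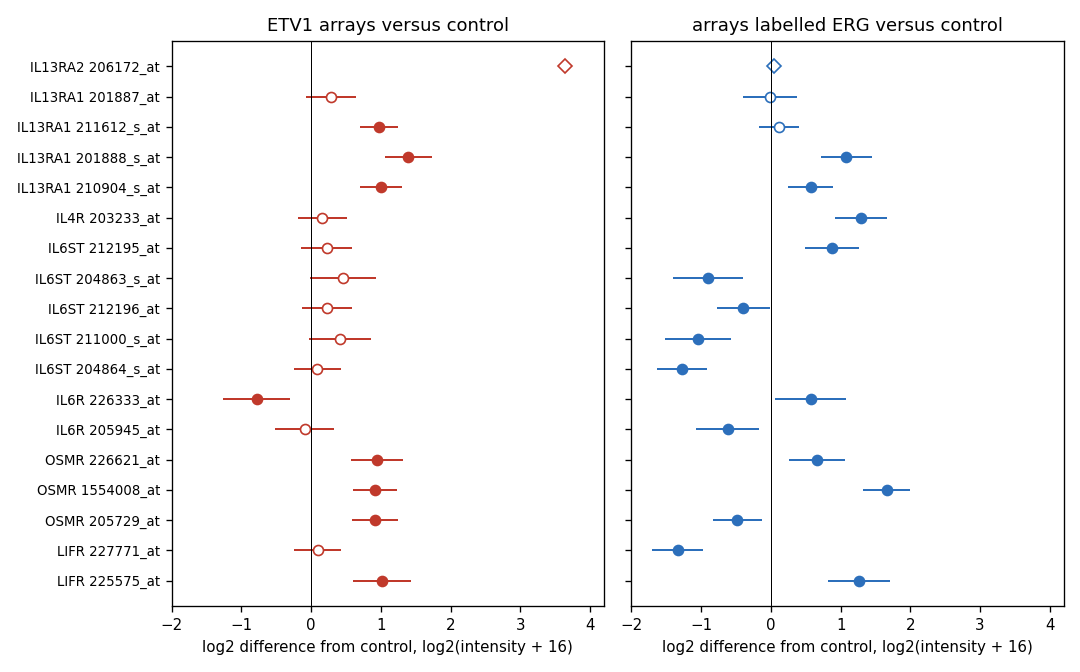
Log2 difference from control, on log2(intensity + 16), of the 18 tested receptor probe sets, for ETV1 arrays and for arrays labelled ERG, with 95% intervals from limma; filled points passed, open circles did not, and the diamonds are IL13RA2, shown without a test. In ETV1 cells IL13RA2 lies at 3.65, and the other probe sets lie between -0.78 and 1.40. On the ERG-labelled arrays probe sets of IL6ST, IL6R, OSMR and LIFR lie on both sides of 0, and those of IL6R did not pass after quantile normalization.

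The ETV1 and ERG-labelled comparisons share the control arrays, so their values are set side by side only. OSMR 1554008_at differed from control by 0.92 in ETV1 cells and by 1.66 on the ERG-labelled arrays, and 205729_at by 0.92 and -0.48. IL13RA1 201888_s_at differed by 1.40 and 1.08, and LIFR 225575_at by 1.02 and 1.26. Compared directly, ERG-labelled arrays lay above ETV1 arrays on 4 and below them on 9 of the 17 probe sets other than that of IL13RA2. In this comparison 82.1% of all probe sets passed, 45.6% upward and 36.5% downward. Median centring moved the upward share of passing probe sets from 55.5% to 68.7%, and the median over all tested from 0.20 to 0.70. LIFR 225575_at did not pass between them (0.24, limma adjusted p = 0.25), but did after quantile normalization (0.48), after median centring (0.74) and without ERG-labelled replicate B (0.43).

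Among the listed genes 49 of 96 rose and 29 fell on the ERG-labelled arrays, 81.2% in all, where 80.4% of all tested genes passed, 48% upward and 32.3% downward. SOCS3 rose by 2.08 (SE 0.19) and SOCS2 by 1.43 (SE 0.14), and of the 15 inhibitors 10 rose and 1 fell, the SUMO ligase PIAS2 at -0.85. SOCS2 passed on 1 of 2 tested probe sets, and of 5 tested PIAS2 probe sets 2 passed downward and 1 upward. Of the ligands, LIF rose by 1.63 (SE 0.16), while IL6 fell by 1.54 (SE 0.15), from 258 ± 24.0 to 78.4 ± 11.1. SOCS1 and IL11 read 111 ± 14.9 and 136 ± 12.8 here, and passed the filter only through these arrays, where they are high. Their differences from control are thus not independent of the filter. STAT3 differed by -0.11 (limma adjusted p = 0.52), by -0.60 with a passing p after quantile normalization and by 0.40 with a passing p after median centring.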

How the data were processed

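Total RNA of 10 RWPE-1 samples was extracted with Trizol and hybridised as biotin-labelled cRNA, per the labels. The deposited table holds 1 linear intensity for each probe set and array. Its summarisation and normalization by the authors are not stated in the labels or headers, and no further normalization was applied. Probe sets were named from the platform annotation: of 54675, 41091 named 1 gene, 1801 several and 11721 none, and 62 were controls.

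Log2(intensity + 16) was fitted in limma 3.58.1 (R 4.3.3) with 3 groups and 7 residual degrees of freedom, and p-values were adjusted by Benjamini-Hochberg over all 25969 tested probe sets. The procedure was tested on simulated data. IL13RA2 was fitted with the rest, and its differences are given without a test, including that between ERG-labelled and control arrays, for which a test had been planned. Gene lists were read from the brightest probe set of each gene. The members and lists were chosen with earlier results of these data known. Named were all member probe sets, the 6 genes most like IL13RA2, a fixed set of ligands, kinases, STAT and SOCS genes, and up to 3 genes per list and direction. For the ERG-labelled arrays only a few of the latter are given. Alternatives were median centring, quantile normalization, testing without a filter, other pseudocounts, fewer groups, 1 probe set per gene, a replicate block, and leaving out each array. No 2 arrays held identical values. The number of arrays limits the precision. Silencing experiments in LNCaP and VCaP cells were not analysed here.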

Additional observations from a re-analysis of the deposited data

Results flagged for a closer look

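Of the 24 receptor probe sets, 3 had 1 ETV1 array set apart relative to the range of its group, in each case replicate D. Chance alone gives about 1 such group in 20. IL13RA1 211612_s_at read 260.94 on replicate D, against 253.44 to 254.28 on the others. This step is small and stands out only because the others lie close together. IL6ST 204863_s_at read 567.69 on replicate D, against 744.32 to 765.4. IL6R 205945_at read 345.83 on replicate D, against 178.79 to 206.18.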

How the results depend on the processing

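Over all alternatives the ETV1 minus control difference of IL13RA2 ran from 3.30 to 4.04, and the number of receptor probe sets that passed ran from 7 to 11 for ETV1 against control, 12 to 15 for ERG-labelled against control and 11 to 15 for ERG-labelled against ETV1 arrays. With the brightest probe set of each gene, which tests fewer features, 3553, 11305 and 11827 genes passed in these comparisons. The highest counts over all probe sets in any alternative were 8123, 27084 and 28736. Of these, 27084 and 28736 exceed the 25969 probe sets tested with the filter. Without the filter all 41091 probe sets naming 1 gene are tested, so such counts are not shares of the same total. Leaving out 1 array, 17 to 29 listed genes passed for ETV1 against control, and 4087 to 7155 of all probe sets. Signs also turned for differences that passed neither as deposited nor in the alternative that turned them. Examples are IL6R 205945_at (0.018 without ETV1 replicate B) and OSMR 226621_at between ERG-labelled and ETV1 arrays (0.25 after median centring). This OSMR difference passed in other alternatives, at -0.80 after quantile normalization and -0.46 without ERG-labelled replicate C. TYK2 and IRS2 between ERG-labelled and control arrays also changed sign over the alternatives, and passed after median centring (0.67 and 0.73). Differences that turned and passed either as deposited or in the alternative that turned them were the following, all of ERG-labelled arrays. Against control, median centring gave 0.49 for IL13RA1 201887_at, 0.10 for IL6ST 212196_at and 0.40 for STAT3, and quantile normalization gave -0.11 for STAT6, -0.18 for IL20RB, -0.050 for PTPN11, -0.41 for CCND1 and -0.42 for LCN2. Against ETV1 arrays, quantile normalization gave -0.13 for IL6ST 212195_at and median centring 0.067 for IL13RA1 210904_s_at. The cause was not tested. Same-lettered arrays did not deviate together (correlations from -0.0992 to 0.0872). The labels do not say whether they shared a batch. With the replicate block, 5243, 20139 and 20667 probe sets passed in the 3 comparisons, 8, 15 and 12 of them of the receptors, and IL13RA2 differed by 3.94.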

Other observations

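IL6ST-DT, the transcript divergent to IL6ST, read 170 to 181 on control arrays, 154 to 195 on ETV1 arrays and 29.1 to 50.4 on the ERG-labelled arrays. It differed by -0.04 between ETV1 and control arrays (SE 0.15, limma adjusted p = 0.89) and fell by 1.83 on the ERG-labelled arrays (SE 0.16, limma adjusted p = 2.8e-08), where probe sets of 1 gene often move in opposite directions. IL6R-AS1, antisense to IL6R, was dim and not tested, at 4.35 ± 2.20 (SD, n = 3) on control arrays, 3.15 ± 1.42 (n = 4) on ETV1 arrays and 17.7 ± 6.35 (n = 3) on the ERG-labelled arrays.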
